A study of Mus musculus with 51 samples.

Results

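The axoneme and cilium genes described here were the protein-coding autosomal genes of GENCODE M21 whose symbols begin with Cfap, Dnah, Rsph, Tekt or Ift followed by a digit. This rule, which used names only and no measured value, found 73 of 20807 genes: 31 Cfap, 15 Dnah, 8 Rsph, 5 Tekt and 14 Ift genes. A gene was called in a list when a peak overlapped, by at least 1 bp, a window of 500 bp on either side of any of its transcription start sites (TSSs), and the width of its widest such peak was recorded.

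The axoneme is the microtubule core of motile cilia and of the sperm tail. Dnah genes encode the dynein heavy chains that power its bending, Rsph genes the radial spokes that link the outer doublets to the central pair, Tekt genes the tektin filaments of the doublets, and Cfap genes a mixed set of cilium and flagellum proteins. Ift genes encode the intraflagellar transport particles that carry cargo along nearly all cilia, motile or not. Sperm tails are built after meiosis, by spermatids. H3K4me3 marks the starts of active and poised genes, and H3K9ac those of active genes.

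Nuclei came from testes of adult wild-type C57Bl/6J male mice, fixed with formaldehyde and sorted by flow cytometry on DNA content and on the nuclear proteins SCP3, H1t, SCP1 and STRA8 into 5 stages of meiotic prophase I: leptonema (LE), zygonema (ZY), early pachynema (EP), late pachynema (LP) and diplonema (DI). Leptonema was taken in a separate sort that used STRA8. No group carried a mutation or a treatment. There were 20 peak lists from ChIP-Seq, called for each library: H3K4me3 with an EpiCypher antibody in experiments 1 and 2 at each stage, an Abcam antibody that also binds H3K4me2 (H3K4me2/3) in experiment 2, and H3K9ac in experiment 1. Both H3K4me2/3 and H3K9ac therefore had 1 list a stage and no replicate. The titles of the latter samples name H3K9ac while an antibody field of the same samples names H3K4me3. The lists held 4883 to 15699 peaks for H3K4me3, 17561 to 30943 for H3K4me2/3 and 516 to 16003 for H3K9ac, with no score or read count, so read depth is unknown and a gene without a peak may still carry the mark.

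The following sequences lie just before the RefSeq start (GRCm38.p6) of genes on which the results turn, read 5′ to 3′ on the strand of the gene. Capitals mark the letters of the X-box, the element that RFX transcription factors bind: an arm spelled GTTGCC or GGCAAC, or the facing pair GTTGCNNNGCAAC or GTTGCNNNNGCAAC. Dnah7a, Dnah7b and Dnah7c are paralogs on chromosome 1, Dnah7b and Dnah7c next to each other and Dnah7a farther along, first called in early pachynema, shown to compare the same site in each.
Dnah7a, chr1:53706820-53706849, minus strand: gccagtttGTTGCTTAGCAACgaatcgacc
Dnah7b, chr1:46066821-46066850, plus strand: gccagtttGTTGCTTAGCAACgaatcgacc
Dnah7c, chr1:46425441-46425470, plus strand: tccagtttGTTGCTTAGCAACgaatcgacc
Tekt1 and Tekt4 gained H3K4me3 late in prophase.
Tekt1, chr11:72361888-72361917, minus strand: GGCAACgttgcgtccgtccgGTTGCCatag
Tekt4, chr17:25471440-25471589, plus strand: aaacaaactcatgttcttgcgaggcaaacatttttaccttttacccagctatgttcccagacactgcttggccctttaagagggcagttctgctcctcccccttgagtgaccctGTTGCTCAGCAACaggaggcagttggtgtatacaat
Rsph3a, Cfap20 and Ift22 were already called in leptonema.
Rsph3a, chr17:7945464-7945613, plus strand: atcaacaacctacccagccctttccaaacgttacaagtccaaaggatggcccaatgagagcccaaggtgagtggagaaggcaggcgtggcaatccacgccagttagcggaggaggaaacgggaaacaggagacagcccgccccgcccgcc
Cfap20, chr8:95434870-95435019, minus strand: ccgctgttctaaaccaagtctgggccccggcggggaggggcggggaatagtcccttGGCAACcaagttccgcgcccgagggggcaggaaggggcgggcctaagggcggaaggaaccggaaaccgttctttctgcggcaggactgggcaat
Ift22, chr5:136908000-136908149, plus strand: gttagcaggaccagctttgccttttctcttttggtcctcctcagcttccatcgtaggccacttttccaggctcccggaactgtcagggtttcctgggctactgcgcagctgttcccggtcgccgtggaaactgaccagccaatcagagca
The sites of Dnah7a, Dnah7b, Dnah7c and Tekt1 are limited to 30 bases because an exon is annotated within the 150 bases before the start, and the other stretches are those 150 bases. The stretch of Tekt4 is intronic to a longer transcript of that gene, that of Rsph3a is intronic to the antisense gene E430024P14Rik, and those of Cfap20 and Ift22 lie in no GENCODE gene. The pair in the Dnah7 genes reads GTTGCTTAGCAAC in all 3 and begins 57 bases before the start in Dnah7a, 24 in Dnah7b and 69 in Dnah7c. In Tekt4 it reads GTTGCTCAGCAAC and begins 36 bases before the start. Rsph3a and Ift22 have no such letters in the stretch shown.

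More of the axoneme and cilium genes were called for H3K4me3 in late than in early prophase, a difference that was absent over all genes. In leptonema 23 of the 73 genes were called in experiment 1 (31.5%, against 39.2% of all genes) and 33 in experiment 2 (45.2% against 47.1%). In zygonema the counts were 27 (36.9% of all genes called) and 24 (35.9%), and in early pachynema 32 (34% of all genes) and 28 (25.5%). In late pachynema they were 37 (50.7% against 26.8%) and 53 (72.6% against 40.3%), and in diplonema 56 (76.7% against 29.3%) and 59 (80.8% against 46.8%).
Both diplonema libraries thus lay above both leptonema libraries for these genes, at 57.5 ± 2.12 genes (SD, n = 2) against 28 ± 7.07. The share of the 73 genes called was higher in diplonema than in leptonema by 45.2 percentage points in experiment 1 and 35.6 in experiment 2, while for all genes the same differences were -9.92 and -0.221 points. In experiment 2 the number of all genes called was nearly equal at the ends of prophase, 9793 in leptonema and 9747 in diplonema. In experiment 1 it was 8160 in leptonema and 6095 in diplonema. The part of read depth in these differences was not tested. The late pachynema libraries differed most from each other, and experiment 2 had the longer list (9124 against 5189 peaks).

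**Figure D1:**
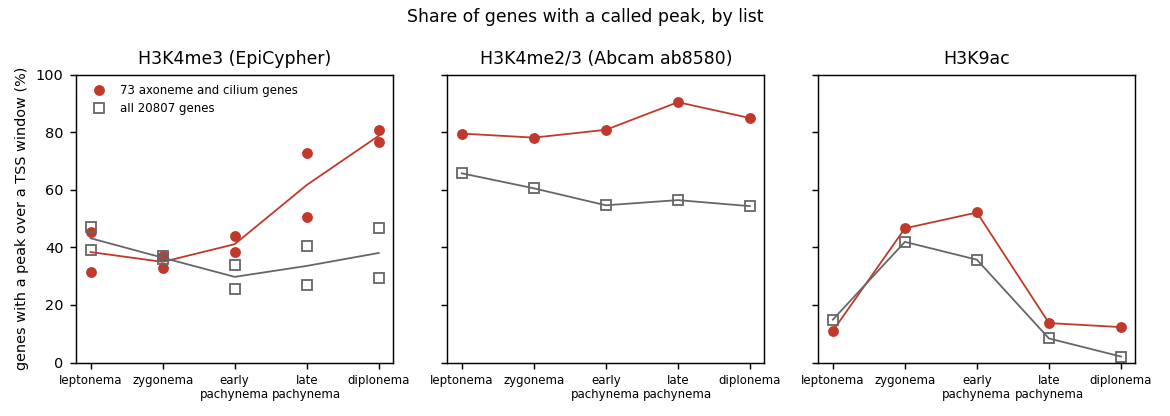
Percent of the 73 axoneme and cilium genes (filled circles) and of all 20807 genes (open squares) with a peak over a TSS window, by stage, for the 3 antibodies; each symbol is 1 list and lines join the stage means. For H3K4me3, the 73 genes stand at 31.5% and 45.2% in leptonema and at 76.7% and 80.8% in diplonema.

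The families differed in when they were called. Ift genes were called throughout: 11 and 12 of 14 in leptonema (experiments 1 and 2) and 12 and 12 in diplonema. Dnah genes went from 0 and 1 of 15 in leptonema through 3 and 4 in early pachynema and 5 and 8 in late pachynema to 9 and 9 in diplonema. Tekt genes were called in 0 and 1 of 5 in leptonema, none in early pachynema, 0 and 4 in late pachynema and 4 and 4 in diplonema.
Cfap and Rsph genes fell between these. Cfap genes went from 9 and 16 of 31 in leptonema to 26 and 28 in diplonema, and Rsph genes from 3 and 3 of 8 to 5 and 6. The genes of a family are not replicates of a condition, so these are counts, with no test between families.

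**Figure D2:**
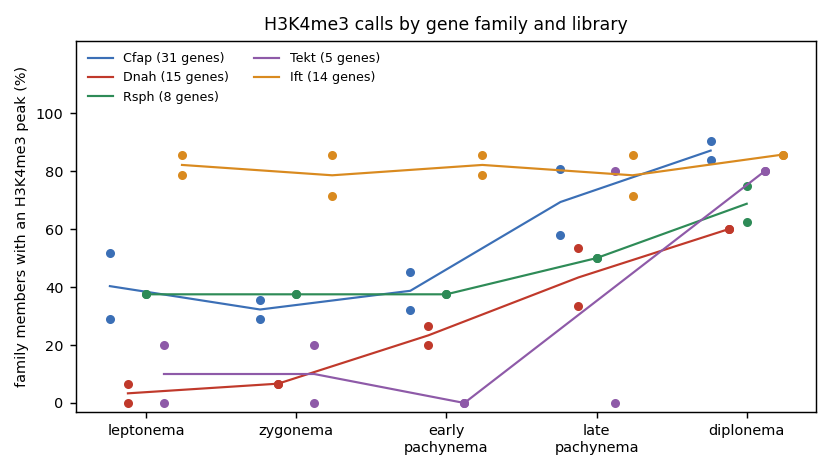
Percent of each family with an H3K4me3 peak by stage; each point is 1 library and lines join the means of the 2 experiments. Ift stays at 10 to 12 of 14 genes in every library, whereas Dnah climbs from 0% and 6.67% in leptonema to 60% in both diplonema libraries.

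Counted by the first stage at which both libraries had a peak, 22 of the 73 genes were first called in leptonema (38.6% of all genes were), 4 in zygonema (1.21%) and 5 in early pachynema (0.678%). A further 7 genes followed in late pachynema (0.956%) and 19 in diplonema (2.59%). The other 16 genes had no stage with peaks in both libraries (56% of all genes). Of the 22 called from leptonema, 11 were Ift, 9 Cfap, 2 Rsph and none Dnah or Tekt. Of the 19 first called in diplonema, 8 were Cfap, 4 Dnah, 4 Tekt, 2 Rsph and 1 Ift.
A peak in both diplonema and neither leptonema library, here a gain, was found at 24 genes, or 32.9% against 2.67% of all genes. They were 10 Cfap, 9 Dnah, 3 Tekt and 2 Rsph genes, with no Ift gene. The reverse, a loss, was found at none of the 73 genes and at 3.29% of all genes.

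**Figure D3:**
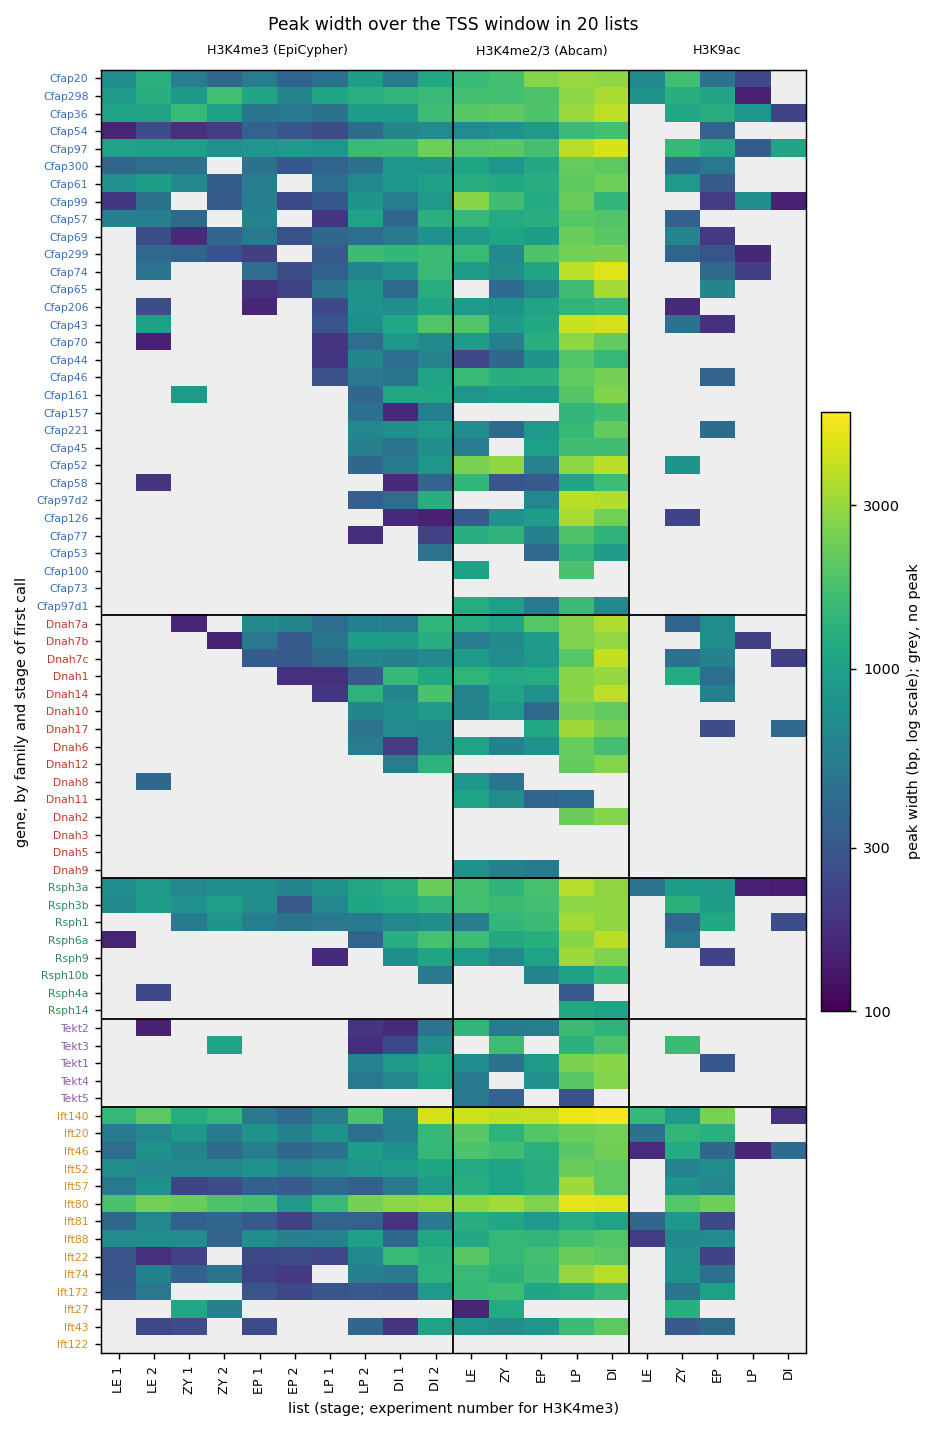
Width in bp (color, log scale; grey where no peak was called) of the widest peak over the TSS window of each of the 73 genes in the 20 lists; rows are grouped by family and ordered by the stage of first H3K4me3 call. The H3K4me3 block fills from the right within Cfap and Dnah, and is filled from leptonema for most Ift genes.

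Among the dynein heavy chains, no gene was called in both leptonema libraries, and 3 paralogs on chromosome 1 came first. Dnah7b (chr1:46066315-46373546, plus strand, mm10), an inner arm heavy chain, had no H3K4me3 peak in leptonema, 0 and 150 bp in zygonema (experiments 1 and 2), 501 and 311 bp in early pachynema, 477 and 944 bp in late pachynema and 906 and 1260 bp in diplonema. Dnah7c (chr1:46425592-46807476, plus strand) had none in leptonema or zygonema, then 323 and 314 bp, 404 and 625 bp, and 591 and 681 bp. Dnah7a (chr1:53397006-53706784, minus strand) had 154 bp in zygonema of experiment 1 only, then 670 and 625 bp, 423 and 588 bp, and 553 and 1389 bp.
For all 3 genes every early pachynema, late pachynema and diplonema library was above every leptonema and zygonema library. Their promoters are similar over the aligned part of the 300 bases around the RefSeq start. Identical bases made up 84.7% between Dnah7a and Dnah7c, 77.8% between Dnah7a and Dnah7b and 76.7% between Dnah7b and Dnah7c. Reads shared between these genes may not be assigned with certainty, so their peaks may not be independent, which was not tested.

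Dnah1, another inner arm heavy chain (chr14:31260375-31323896, minus strand), had 0 and 171 bp in early pachynema, 178 and 317 bp in late pachynema and 1481 and 1158 bp in diplonema, and no peak before. Dnah14 was called from late pachynema, with 191 and 1347 bp there and 625 and 1777 bp in diplonema. The remaining gained heavy chain genes were Dnah6, Dnah10, Dnah12 and Dnah17, named here after their values were seen, like the other genes outside the naming rule. They were first called by both libraries in diplonema, at 204 to 1347 bp.
Of the 6 Dnah genes without both libraries called at any stage, Dnah3 and Dnah5 had no peak in any of the 20 lists. Dnah8, a heavy chain of the outer arm, had 383 bp in leptonema of experiment 2 only. Dnah2, Dnah9 and Dnah11 had H3K4me2/3 peaks only, those of Dnah2 in late pachynema and diplonema and those of Dnah9 and Dnah11 from leptonema onward, ending in early and late pachynema, respectively.

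The radial spoke genes split into those called at every stage and those that came later. Rsph3a (chr17:7945614-7979824, plus strand), which encodes a protein of the spoke stalk, measured 707 and 876 bp in leptonema, 658 and 736 bp in zygonema, 729 and 622 bp in early pachynema, 791 and 1135 bp in late pachynema and 1283 and 2222 bp in diplonema. Both diplonema widths were above all 8 others. Its relative Rsph3b (chr17:6904413-6948682, minus strand) measured 681 and 908 bp in leptonema, 772 and 978 bp in zygonema, 735 and 306 bp in early pachynema, 652 and 1087 bp in late pachynema and 1185 and 1411 bp in diplonema. The aligned promoters of the pair had 51.3% identical bases.
Rsph1 (chr17:31255019-31277383, minus strand), a spoke head gene, was the earliest gain: it had no peak in leptonema and 471 to 807 bp in each of the 8 later libraries. Rsph9, also of the spoke head, had 165 bp in late pachynema of experiment 1 and 754 and 1084 bp in diplonema, with no other peak. Rsph6a, a spoke head gene, measured 1275 and 1728 bp in diplonema, 368 bp in late pachynema of experiment 2 and 151 bp in leptonema of experiment 1, and therefore did not count as a gain.
The other 3 spoke genes were rarely called. Rsph10b had 504 bp in diplonema of experiment 2 alone, Rsph4a had 238 bp in leptonema of experiment 2 alone, and Rsph14 had only H3K4me2/3 peaks, of 1145 bp in late pachynema and 1032 bp in diplonema.

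Of the tektins, Tekt1 (chr11:72344722-72362442, minus strand) had no H3K4me3 peak in 7 libraries, 593 bp in late pachynema of experiment 2 and 884 and 1120 bp in diplonema. Tekt4 (chr17:25454615-25476602, plus strand) showed the same calls, at 510 bp, 641 bp and 1030 bp. In both genes only experiment 2 of late pachynema reached a call. Tekt2 was narrower, at 187 bp in late pachynema of experiment 2 and 164 and 467 bp in diplonema, with 144 bp in leptonema of experiment 2.
Tekt3 had 169 bp in late pachynema of experiment 2 and 246 and 728 bp in diplonema, and a separate call of 1046 bp in zygonema of experiment 2, where H3K4me2/3 (1602 bp) and H3K9ac (1570 bp) were also called. Tekt5 had no H3K4me3 peak, and H3K4me2/3 peaks of 511 bp in leptonema, 357 bp in zygonema and 267 bp in late pachynema.

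Among the 31 Cfap genes, 5 were called in all 10 H3K4me3 libraries and 10 were gains. The widest over all libraries were Cfap298, an assembly factor of dynein arms, and Cfap97. Cfap298 measured 872 and 1267 bp in leptonema and 1418 and 1507 bp in diplonema, with 624 to 1649 bp between. Cfap97 measured 1017 and 1002 bp in leptonema and 1575 and 2320 bp in diplonema, above all its 8 other libraries.
Of the gains, Cfap65 (chr1:74902071-74935599, minus strand) came first, with 180 and 221 bp in early pachynema, 475 and 776 bp in late pachynema and 400 and 1231 bp in diplonema. Cfap161 (chr7:83774101-83794880, minus strand) had 377 bp in late pachynema of experiment 2 and 1107 and 1117 bp in diplonema, and 881 bp in zygonema of experiment 1. The others were Cfap44 and Cfap46, first called in late pachynema, and Cfap45, Cfap52, Cfap97d2, Cfap126, Cfap157 and Cfap221, first called in diplonema. Cfap126 was the narrowest of them, at 161 and 144 bp in diplonema. Cfap73 had no peak in any of the 20 lists.
The Cfap genes called at every stage were, besides these, Cfap20, Cfap36 and Cfap54. Cfap20, a protein of the doublet microtubules, ranged from 369 to 1289 bp with its extremes in early pachynema and leptonema of experiment 2, and Cfap36 ranged from 459 to 1608 bp. Cfap54, of the central pair, was narrow in leptonema (152 and 258 bp) and measured 634 and 699 bp in diplonema, above all 8 other libraries (slope 0.13 relative widths a stage, exact permutation test, adjusted p = 0.0527).
In leptonema 7 Cfap genes were called by experiment 2 alone and so could not count as gains. Cfap43 had 1004 bp there, no peak in zygonema or early pachynema, 290 and 749 bp in late pachynema and 1123 and 1895 bp in diplonema. Cfap74 had 463 bp there, none in zygonema, 419 and 265 bp in early pachynema, 342 and 616 bp in late pachynema and 772 and 1540 bp in diplonema. Cfap70, Cfap206 and Cfap299 had 144, 260 and 402 bp there, respectively, and 682 to 1560 bp in the diplonema libraries. Cfap69 had 264 bp there and 521 and 775 bp in diplonema. In these 6 genes both diplonema libraries were wider than the leptonema library that was called, whereas Cfap58 had 182 bp there and 161 and 354 bp in diplonema.

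The intraflagellar transport genes had little left to gain. Of 14 genes, 8 were called in all 10 H3K4me3 libraries, against 18.2% of all genes, and over the 5 families together 15 of the 73 were. Ift80, of the transport particle IFT-B, was the widest, at 1760 and 2386 bp in leptonema, 1712 and 880 bp in early pachynema and 2780 and 3037 bp in diplonema. Ift140, of IFT-A, measured 1474 and 2022 bp in leptonema, 502 and 411 bp in early pachynema and 620 and 4326 bp in diplonema, so that its diplonema libraries differed from each other by more than any other pair of its libraries at the same stage. Ift27 was called for H3K4me3 in zygonema alone, with 1109 and 575 bp there and no H3K4me3 peak at the other stages. Ift122 had no peak in any of the 20 lists.
The other Ift genes called in all 10 libraries were Ift20, Ift46, Ift52, Ift57, Ift81 and Ift88, all of IFT-B. Ift52 lay between 619 and 1086 bp, and Ift81 between 183 and 646 bp with its narrowest peak in diplonema of experiment 1. Ift46 measured 420 and 796 bp in leptonema and 761 and 1470 bp in diplonema, which overlap. Ift22, the transport gene with the lowest p in the trend test, measured 285 and 176 bp in leptonema, 219 and 0 bp in zygonema, 242 and 256 bp in early pachynema, 235 and 692 bp in late pachynema and 1541 and 1309 bp in diplonema. Its diplonema libraries lay above all others, but its trend did not pass the threshold (slope 0.34, exact permutation test, adjusted p = 0.0527).

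**Figure D4:**
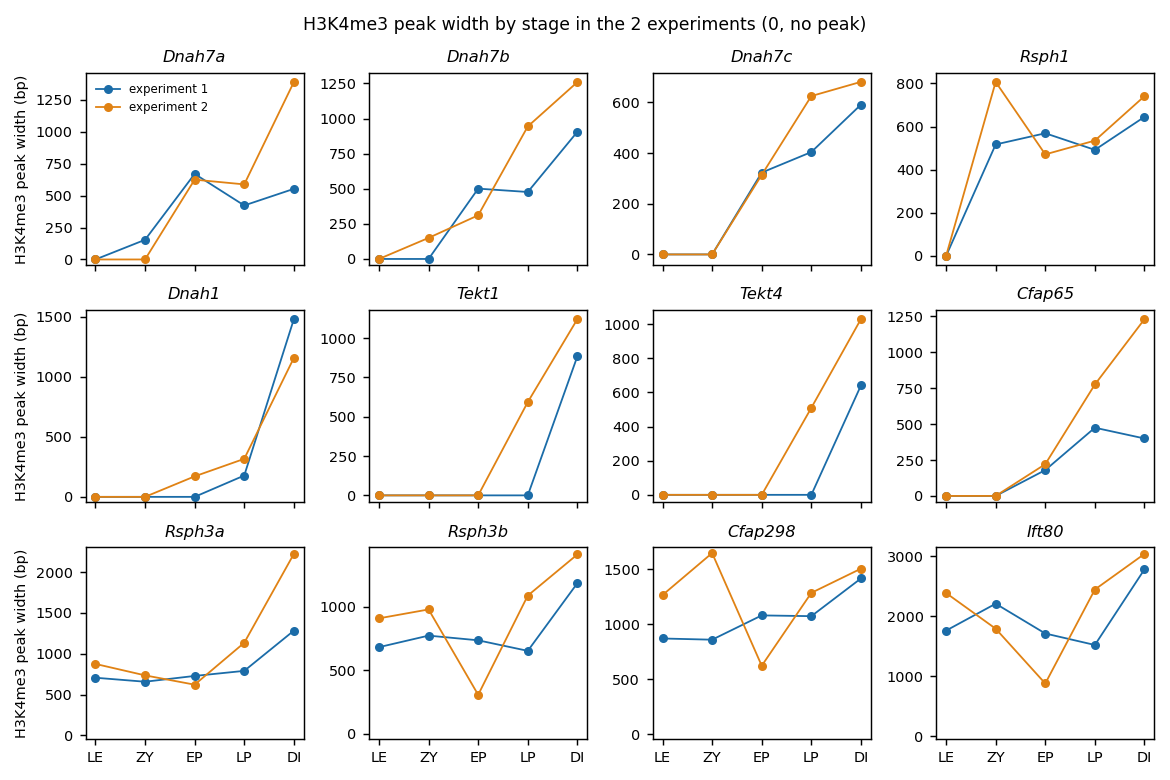
H3K4me3 peak width in bp (0 where no peak was called) at the 5 stages for 12 of the named genes, with experiment 1 in blue and experiment 2 in orange; vertical scales differ between panels. Dnah7a, Dnah7b, Dnah7c and Cfap65 start in early pachynema and Tekt1 and Tekt4 later, while Rsph3a, Rsph3b, Cfap298 and Ift80 carry a peak in every library.

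Whether widths moved in one direction over the stages was tested gene by gene. Each width was divided by the median width over the called genes of its list (relative width). A library without a peak entered with a width of 0, so a trend can reflect the presence of a call as well as its width. A two-sided exact permutation test over the 10 libraries asked for a trend with stage, adjusted by Benjamini-Hochberg over the 11488 genes with a peak in at least 1 library. Of the 73 genes, 62 could be tested. Dnah7b rose by 0.36 relative widths a stage (exact permutation test, p = 0.000265, adjusted p = 0.049) and Rsph3a by 0.25 (p = 0.00037, adjusted p = 0.049, exact permutation test), and none fell. With stages permuted within each experiment, both had an adjusted p of 0.0766 (exact permutation test), and 0 of all genes tested passed. Leaving out single libraries gave slopes of 0.342 to 0.398 for Dnah7b and 0.195 to 0.293 for Rsph3a, but neither passed the threshold in any of these 10 fits, with adjusted p-values (exact permutation test) of 0.0665 to 0.113.
Over all genes tested, 0.505% rose and 0.575% fell. At an unadjusted p under 0.05, 31 of the 62 genes had a slope above 0 (11.2% of all genes tested) and none a slope below 0 (17.2%). They were 16 Cfap, 8 Dnah, 3 Rsph, 2 Tekt and 2 Ift genes. With rank percentiles of width in place of relative widths, 22 of the 62 genes rose at an adjusted p under 0.05 and none fell, while 752 genes rose and 319 fell among all tested. The libraries are separate experiments by label, and where nothing names the animals the p-values measure only the spread between these libraries.

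H3K4me2/3 peaks were called at most of these genes at every stage. Of the 73 genes, 58 had a peak in leptonema (79.5% against 65.7% of all genes), 57 in zygonema (60.5% of all genes) and 59 in early pachynema (54.6%). The counts were 66 in late pachynema (90.4% against 56.4%) and 62 in diplonema (84.9% against 54.3%). In leptonema 25 of the 73 genes had an H3K4me2/3 peak and no H3K4me3 peak in either library, or 34.2% against 18.1% of all genes. Of the 24 genes that gained H3K4me3, 18 already had an H3K4me2/3 peak in leptonema, or 75%, close to the 80% among all 556 genes that gained it.
These peaks were wider in late pachynema and diplonema than at the 3 earlier stages. The median width over the called genes of the set was 1189 bp in leptonema, 1049 bp in zygonema, 1063 bp in early pachynema, 2210 bp in late pachynema and 2390 bp in diplonema, while that over all called genes was 1437, 1318, 1252, 1752 and 1861 bp. In leptonema 20 of the 58 called genes were wider than the median of the list, and in diplonema 45 of 62.
Dnah1, for example, measured 1389 bp in leptonema, 1176 bp in zygonema, 1216 bp in early pachynema, 2727 bp in late pachynema and 2964 bp in diplonema. Dnah7b measured 556, 693, 934, 2587 and 2905 bp in the same order. Among genes with a peak at all 5 stages, the median ratio of diplonema to leptonema width was 1.89 for 50 axoneme and cilium genes and 1.24 for all 10133 genes. By family it was 3.43 for 7 Dnah, 2.28 for 5 Rsph, 1.91 for 24 Cfap and 1.46 for 12 Ift genes. It was 3.32 for the 16 gained genes of the set with a peak at all 5 stages and 2.54 for the 362 gained genes overall. With 1 library a stage, these ratios have no replicate error.

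**Figure D5:**
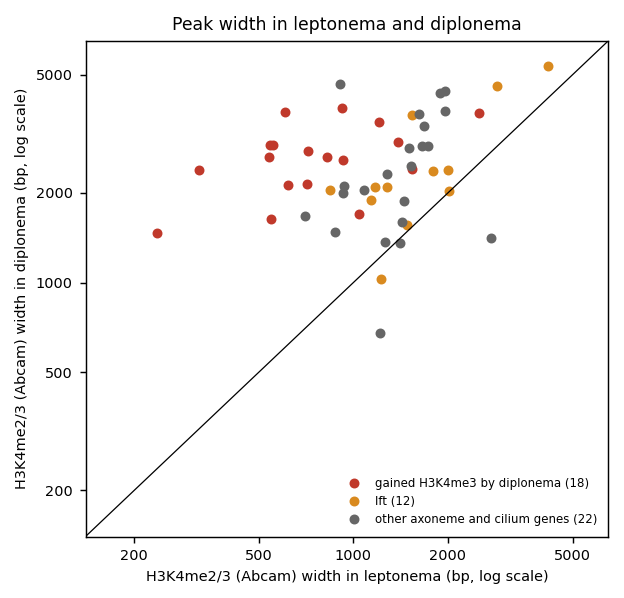
H3K4me2/3 (Abcam) peak width in leptonema (horizontal) and diplonema (vertical), in bp on log axes, for the 52 genes of the set with a peak in both lists; the line marks equal width. All 18 genes that gained H3K4me3 (red) lie above the line, as do 11 of 12 Ift genes (orange) and 19 of 22 others (grey). These widths are not scaled, and the median over all called genes was also larger in diplonema (1861 against 1437 bp). By relative width, among genes with a peak at all 5 stages, the ratio of diplonema to leptonema exceeded 1 in 40 of 50 genes of the set. It did so in 46.6% of all such genes, in 7 of 12 Ift genes and in 92% of all gained genes.

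In the whole lists, H3K9ac peaks at these genes and over all genes were most frequent in zygonema and early pachynema. With the 516 widest peaks of each list, the counts for these genes were 2, 0, 2, 2 and 9 in the order of the stages. The shares of all genes called were then 2.92%, 2.42%, 2.68%, 2.63% and 2.08%, so only the diplonema count (12.3%) lay well above its share. That list held 516 peaks and was not shortened. In the whole lists, H3K9ac peaks were called at 8 of the 73 genes in leptonema (14.9% of all genes), 34 in zygonema (46.6% against 41.9%) and 38 in early pachynema (52.1% against 35.7%). The later lists were short, with 10 genes called in late pachynema (13.7% against 8.36%) and 9 in diplonema (12.3% against 2.08%). Of the 24 genes that gained H3K4me3, 12 had an H3K9ac peak in early pachynema, or 50%, against 38.8% of all gained genes. Among them were Dnah7b (748 bp), Dnah7a (695 bp), Rsph1 (1163 bp) and Cfap65 (630 bp).
The 9 genes of the short diplonema list, which held 516 peaks, were Cfap36, Cfap97, Cfap99, Dnah7c, Dnah17, Rsph1, Rsph3a, Ift46 and Ift140. Cfap97 was the widest of them at 1055 bp. Cfap97, Cfap99, Ift46 and Ift140 each have a TSS of another protein-coding gene within 500 bp of their own, so their peaks cannot be assigned to either gene. Of the 61 genes of the set without such a neighbor, 5 were called in this list (8.2%), against 1.69% of all such genes.

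None of the 24 gained genes had a start site close to that of another coding gene. Among the 73 genes, 12 had a TSS of another protein-coding gene within 500 bp of their own (16.4% against 13.5% of all genes), including 5 of 14 Ift genes, such as Ift80 beside Smc4, Ift20 beside Tnfaip1 and Ift140 beside Cramp1l. Over all genes that gained H3K4me3 the share was 12.6%. A peak there cannot be assigned to either gene. Without those 12 genes, 15 and 23 of the other 61 were called for H3K4me3 in leptonema and 47 and 50 in diplonema. A TSS of any other gene, coding or not, lay within 500 bp for 22 of the 73 genes (30.1% against 23.3% of all genes). These 22 included 3 of the 24 gained genes (26.8% of all gained genes had such a neighbor). Rsph3a, beside the antisense gene E430024P14Rik, was also among the 22.
RefSeq promoters of 300 bases (250 before to 50 after the start) were matched to 58 of the 73 genes, or 79.5%, which is too few for shares over the whole set, and to 20 of the 24 gained genes and 18 of the 22 genes called in both leptonema libraries. A ratio of observed to expected CpG above 0.6 was found in 4 of the 20 gained promoters and 17 of the 18 leptonema promoters, against 51.3% of 15828 matched promoters of all genes. The same direction held over all genes, with 39.6% of the 402 matched promoters of gained genes (72.3% of those genes were matched) and 86.5% of the 6483 matched promoters of genes called in both leptonema libraries. The median ratio was 0.504 for the 20 gained and 0.836 for the 18 leptonema promoters of the set. It was 0.527 and 0.839 for the matched promoters of all gained and all leptonema genes. Among all matched promoters at or below 0.6, 9.96% had H3K4me3 peaks in both diplonema libraries, against 20 of 28 such promoters of the set.
On either strand, GTTGCC (reverse complement GGCAAC) occurred in 10 of the 20 gained and 8 of the 18 leptonema promoters, against 12.3% of all matched promoters, 24.9% of those of all gained genes and 12.6% of those of all leptonema genes. The facing pair, whose letters can include those of a single arm and whose spelling was chosen after the Dnah7 sequences were seen, occurred in 6 of 20, 2 of 18 and 0.436%. Dnah7a, Dnah7b and Dnah7c are among those 6, so that part of the count was set by the choice of spelling. The share was 3.48% for all gained genes and 0.494% for all leptonema genes. The core letters AACTG (reverse complement CAGTT) that MYB proteins bind occurred in 13 of 20, 12 of 18 and 41.2%. They occurred in 54.2% of promoters of all gained genes and 33.9% of those of all leptonema genes. Of genes without an H3K4me3 peak in any of the 10 libraries, 6 of 8 matched promoters of the set had them, against 49% over all genes. The cyclic AMP response element TGACGTCA occurred in 1 of 20, 1 of 18 and 2.53%, and TATAAA within the 50 bases before the start in none of either group and 3.59%. These are letter matches, not sites shown to be bound.

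Genes that work with these families were examined in 6 lists: of 84 genes found, 18 were gained (2.67% of all genes were) and none was lost. Most gains were in lists of genes of the axoneme or of its assembly. In the nexin-dynein regulatory complex and the molecular ruler of the axoneme, 6 of 11 genes were gained (Drc1, Gas8, Tcte1, Drc7, Ccdc39 and Ccdc40). In the central pair apparatus 4 of 11 were (Spag6l, Spag16, Spag17 and Hydin). Gains were also found at 4 of 11 docking and smaller chains of dynein arms (Dnali1, Dynlrb2, Ttc25 and Wdr63) and 2 of 13 dynein arm assembly factors (Dnaaf3 and Zmynd10). The BBSome and dynein-2 list also held other intraflagellar transport genes and kinesin genes, such as Wdr35 and Kif3a. This list, whose products act in transport in the cilium, had 1 gain of 25, Ttc8. By the trend test 1 of the 80 genes that could be tested rose and none fell, namely Spag6l, with a slope of 0.34 (exact permutation test, p = 0.000212, adjusted p = 0.049). This call too was lost when any single library was left out, since no gene at all passed in those 10 fits.
Spag6l had no peak in leptonema or zygonema, 226 and 316 bp in early pachynema, 431 and 500 bp in late pachynema and 880 and 1276 bp in diplonema. Among 13 transcription factors of the cilium and pachytene programs, Rfx4 was the only gain. Rfx2, Rfx3 and Mybl1, which encodes the pachytene activator A-MYB, were called in all 10 libraries. Foxj1, a regulator of motile cilium genes, was called in both leptonema libraries (434 and 448 bp), in neither library of zygonema or early pachynema, in late pachynema of experiment 2 (814 bp) and in both diplonema libraries (401 and 1074 bp).

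Markers of the stages and of other cell types of the testis were called as follows. All 4 leptotene markers that were found, Stra8 among them, were called in both leptonema libraries, 1 and 3 in zygonema, 0 in early pachynema, and 1 and 2 in each of late pachynema and diplonema. The 6 markers of zygotene to pachytene were called at 5 or 6 in every H3K4me3 library, leptonema included. Of 6 pachytene to diplotene markers, 1 was called in each leptonema library and 5 in each diplonema library. Round spermatids also build axonemes: of their 8 markers, 2 were called in each leptonema library, 0 in late pachynema and 0 and 1 in diplonema, and Acrv1, Prm1, Prm2 and Tnp1 had no peak in any of the 20 lists. Sertoli cell markers were called at 0 and 3 of 6 in leptonema and 0 and 1 in diplonema. Markers of multiciliated epithelial cells, a list that includes Foxj1, were called at 2 and 3 of 7 in leptonema, none in zygonema or early pachynema, 0 and 3 in late pachynema and 1 and 3 in diplonema, and their part in the results was not tested.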

How the data were processed

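ChIP-Seq peaks were analysed from 20 of 51 samples; the other 31 samples were not analysed here. Per the methods of the study, the authors aligned reads to mm10 with BWA mem 0.7.12 and called peaks with MACS2 2.1.2 in broad mode, with a q-value limit and stage-matched input for H3K4me3; for H3K9ac the control is not given in the sources used here. Peaks were called per library, not pooled. The deposited lists hold intervals without scores, so a deeper or purer library may give a longer list and wider peaks, and depth is unknown. The spike-in normalization of the study does not enter them.

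Calls and widths used GENCODE M21 on chromosomes 1 to 19, in Python 3.11.15 with numpy 2.4.6 and scipy 1.17.1, and were checked against bedtools 2.31.1 and on simulated data. The RefSeq promoter of a gene was the one whose start most GENCODE transcripts shared within 50 bp; promoters were aligned with Biopython 1.88. The trend test was a two-sided exact permutation test over 113400 assignments (smallest p 1.76e-05), with a threshold of 0.05. The members and lists were chosen with earlier results of these data known. No p was computed for the set as a whole.

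The genes named were those called by the trend test, all Rsph and Tekt genes, up to 10 gained or lost genes by mean relative width, the 2 widest of each family, genes without any peak, and Foxj1, Rfx2, Rfx3 and Mybl1. Alternatives changed the window, overlap, transcripts, list length, scaling, filter, replicate block and libraries.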

Additional observations from a re-analysis of the deposited data

How the results depend on the processing

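The 24 gains, the 0 losses and the difference of 40.4 points in the share of the 73 genes called were recomputed with other windows, overlaps, transcripts, list lengths and libraries, and gains outnumbered losses in each; with equal list lengths (the widest peaks only), 18 gains and 37 points were found, and without single leptonema or diplonema libraries 24 to 33 gains, 0 to 2 losses and 33.6 to 47.3 points. The 2 losses arose without leptonema experiment 1. Over all genes, the shares gained and lost also rose above the main 2.67% and 3.29%. This held with equal list lengths and without each of these single libraries. The counts from those settings are therefore not to be read against the main shares. The number of genes passing the adjusted trend test (2) was sensitive. It was 0 in an exact test with the replicate block (stages permuted within experiments), with leptonema and zygonema set against the later stages, with calls in place of widths, without a filter, with windows of a wider span or with an overlap of 200 bp, 1 with equal lists, and 22 with rank percentiles. It was 0 to 0 without single libraries; none of the 73 genes fell in any of these fits. Correlations of deviations within an experiment number were -0.15 to 0.32, with 2 of 10 over 0.1. The main test did not pair libraries by number, but low correlations do not show that they were unpaired.

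Stages of first call shifted with the rule. With equal lists, 9 genes were first called in leptonema, 0 in zygonema, 13 in early pachynema and 9 in diplonema, and 33 at no stage. With an overlap of 200 bp, 8 were first called in early pachynema and 4 in late pachynema. For both rules the shares over all genes were not computed. With a peak in either library sufficing, the counts became 34 in leptonema (47.7% of all genes) and 4 in diplonema (2.57%). They were 3 in early pachynema (0.63%) and 15 in late pachynema (2.96%). H3K9ac counts with equal lists of 516 peaks were 2 in leptonema, 0 in zygonema, 2 in early pachynema and 2 in late pachynema, against 9 in diplonema; with an overlap of 200 bp the late pachynema count was 6. The causes were not tested. Depth, purity and enrichment of the libraries cannot be read from the lists. The study reports purity and enrichment for each H3K4me3 library, but these values were not used here, so no call could be given a precision.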
